A study of Mus musculus with 6 samples.

Results

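The gene set described here is a list of 43 imprinted genes, named in earlier work on these data as a network around the imprinted transcription factor Zac1. The genes were found in the deposited table by matching Ensembl identifiers to symbols, and all 43 were present among 49585 listed genes. They were grouped by imprinted locus and by the parental allele that is known to be expressed. The list names genes and sets no measured threshold, but it was drawn up with earlier results of these data known.

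The RNA came from AML12 cells, a mouse hepatocyte line derived from the liver of a mouse transgenic for human transforming growth factor alpha. The EGFP group was transfected with an over-expression construct carrying the open reading frame of enhanced green fluorescent protein, and the Zac1 group with one carrying that of Zac1. All cells were of this line and were profiled 24 h after transfection by sequencing of polyadenylated RNA. Each group had 3 libraries, EGFP 1 to 3 and Zac1 4 to 6. The labels do not tie libraries to separate cultures, so the p-values below measure the spread between libraries, which may be technical. Which promoter drove the constructs, and what share of cells took them up, is not given in the sources used here. In bulk RNA, fewer cells with a transcript and less transcript per cell cannot be told apart.

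Imprinted genes are transcribed mainly from the chromosome inherited from one parent. They lie in clusters under the control of differentially methylated regions, and many regulate growth of the fetus and placenta. Zac1, encoded by the imprinted gene Plagl1, is a zinc-finger factor of the PLAG family known for regulating other imprinted genes in embryonic tissue. In liver, much of this group, including Igf2, H19 and Dlk1, is abundant in the fetus and falls to low levels after birth. Expression by allele was not measured in these libraries, so the parental allele given for each gene is background knowledge.

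Libraries held 14801240 to 15145092 counted reads in the EGFP group and 16104498 to 18302538 in the Zac1 group. Plagl1 had 185 reads over the EGFP libraries and 389523 over the Zac1 libraries, or 4.14 ± 1.39 against 7538 ± 811 CPM (counts per 1000000 reads; mean ± SD, n = 3 libraries each). Its log2 fold change was 10.83 (SE 0.15, edgeR adjusted p = 1.54e-15), and these counts do not separate the construct from the cell's own gene. Across the table, 459 of 12130 tested genes passed the test, 378 of them higher and 81 lower in the Zac1 group. The summed level of 12 hepatocyte markers was 4908 to 5240 CPM in the EGFP libraries and 5005 to 5432 CPM in the Zac1 libraries. Keratin Krt8 led them at 1750 CPM in the EGFP group, while Alb, which encodes albumin, stood at 34.7 CPM, and Fgb and Cps1 had 58 and 17 reads over all 6 libraries. Of 6 listed cholangiocyte and progenitor markers, 5 were also expressed (Krt19, Krt7, Sox9, Spp1 and Cftr), while Epcam had 1 and 3 reads per group. The list summed to 678.7 to 717.8 CPM in the EGFP libraries and 654.4 to 686.1 CPM in the Zac1 libraries. Within it Spp1 was lower and Sox9 higher in every Zac1 library, and neither passed the test (edgeR adjusted p = 0.0861 and 0.366). The 7 stellate cell and fibroblast markers summed to 0.604 to 1.01 CPM in the EGFP group and 2.24 to 2.72 CPM in the Zac1 group, with Lrat at 0 reads, so this list moved with the groups at a very low level. Most of that was Col1a1, a fibrillar collagen gene with 29 and 98 reads per group, the 1 marker of this list with enough reads to be tested, and it passed (log2 fold change 1.54, SE 0.33, edgeR adjusted p = 0.0164). The summed levels of endothelial markers (0.537 to 0.733 against 0.623 to 1.03 CPM, with Tie1 at 0 reads) and macrophage markers (1.96 to 2.49 against 1.88 to 2.56 CPM, with Clec4f at 0 reads) overlapped between the groups. Within these lists single genes did not: Csf1r, a macrophage growth factor receptor, had 0 reads in each EGFP library and 7, 4 and 19 in the Zac1 libraries, and Pecam1, an endothelial adhesion molecule, had 7, 7 and 3 against 9, 13 and 16, while Cd68 had 68 and 56 reads per group. Whether any of this had a part in the results below was not tested.

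None of the imprinted genes with enough reads to be tested passed the test between the Zac1 and EGFP groups. The set split into 15 genes with enough reads to be tested, 16 with a few reads and 12 with no read in any library. A gene was tested where its mean count over the 6 libraries was at least 10. Of the 15 tested genes, 0 were called at an adjusted p under 0.05 (edgeR's quasi-likelihood test with Benjamini-Hochberg adjustment over all 12130 genes), against a background of 3.78% of all tested genes. DESeq2 and limma voom also called 0. At an unadjusted p under 0.05 there were 2 of 15, Phlda2 and Impact, where 15.8% of all tested genes passed. A log2 fold change above 0 was found for 6 genes and one below 0 for 9, with a median of -0.016, where 49.5% of all tested genes lay above 0 and their median was -0.002. The 95% interval of the log2 fold change included 0 for 13 of the 15. It lay within 0.25 of 0 on both sides for 7 genes and within 0.5 for 11, so larger changes of those genes fall outside their intervals. Together the 43 genes took 0.310 to 0.315% of the reads in each library.

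**Figure D1:**
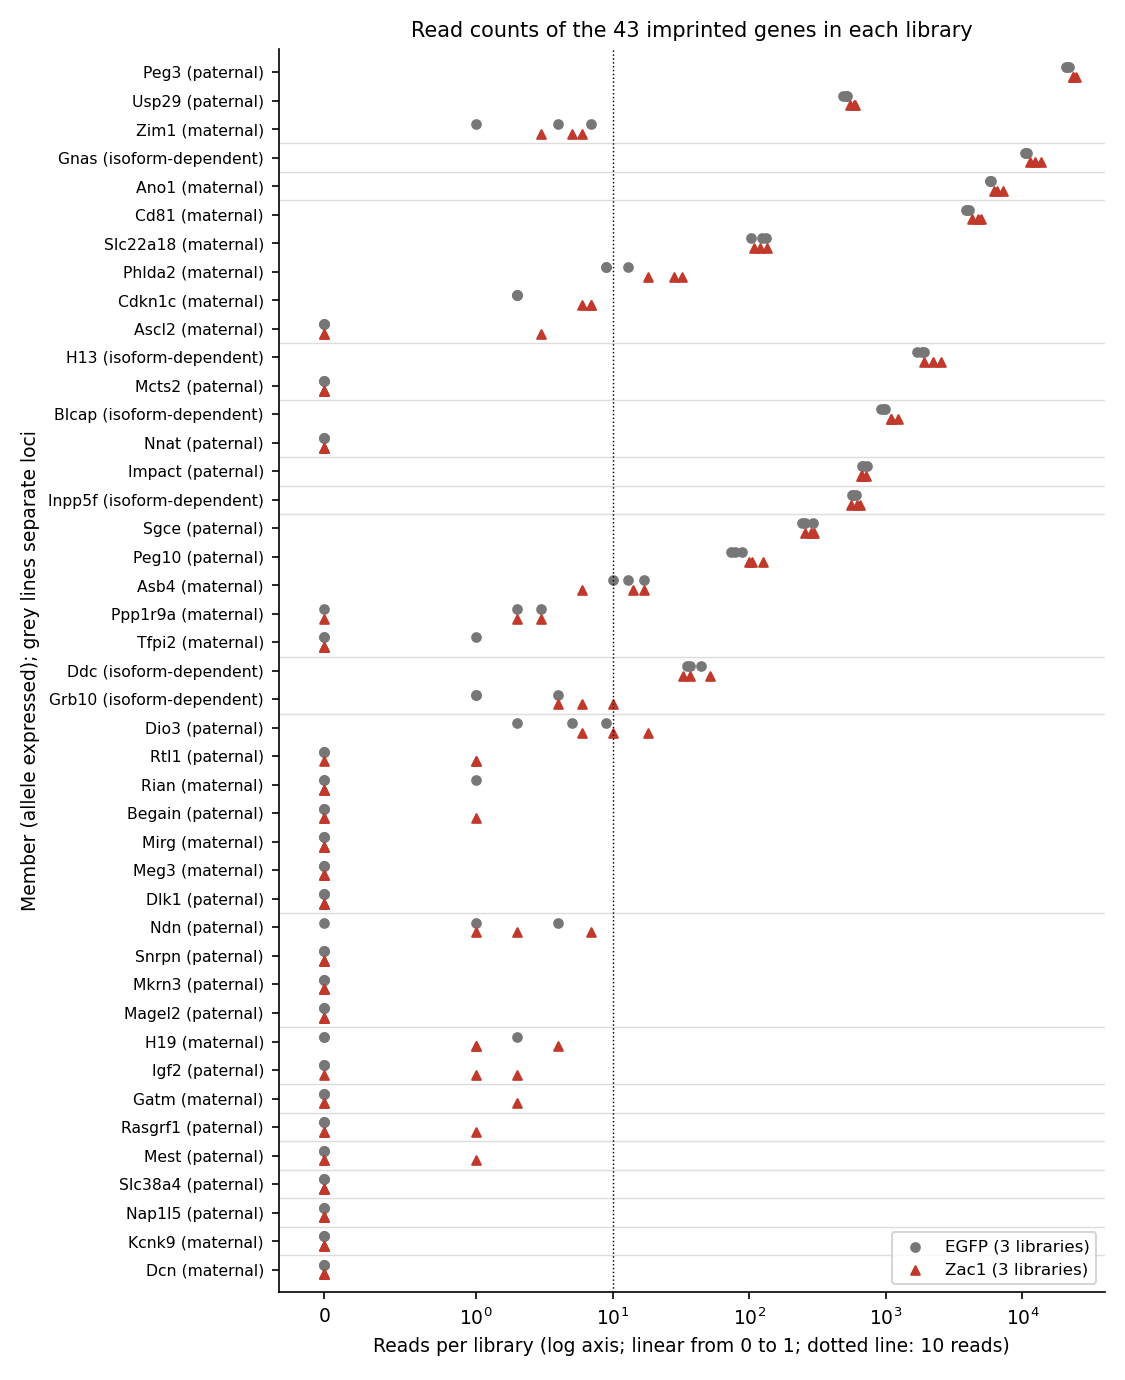
Reads of each of the 43 imprinted genes in each library on a log axis (linear from 0 to 1), with grey circles for the 3 EGFP libraries and red triangles for the 3 Zac1 libraries, ordered by locus. Peg3, Gnas, Ano1 and Cd81 have the most reads in every library, with H13 next. Most of the Dlk1-Dio3 and Prader-Willi genes stand at 0 or a few reads, and in Phlda2 and Cdkn1c every triangle lies to the right of every circle.

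Expression of the set was concentrated in 4 genes. Peg3, Gnas, Ano1 and Cd81 held 88.9 to 89.5% of the set's reads, and Peg3 alone 43.7 to 46.7%. In CPM per kilobase, over all annotated exons of a gene, the EGFP level was 107.3 for Peg3, 92.0 for Cd81, 63.3 for Gnas and 62.7 for Ano1. That length can exceed the length of the transcripts present, as for Gnas with its several promoters, so the order on this scale is approximate. Blcap, H13 and Impact followed at 21.2, 13.7 and 9.07 CPM per kilobase. The remaining tested genes lay between 4.72 for Slc22a18 and 0.227 for Asb4 on the same scale.

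The Peg3 domain on chromosome 7 held the most abundant gene of the set. Peg3 is a paternally expressed zinc-finger protein (chr7:6703892-6730431 on the minus strand in GRCm38), and Usp29, a ubiquitin-specific protease expressed from the same allele, starts beside it and runs the other way (chr7:6730578-6967219, plus strand). Peg3 had 21894, 21125 and 20924 reads in the EGFP libraries and 23302, 23458 and 24809 in the Zac1 libraries. Scaled to library size these were 1458, 1419 and 1414 CPM against 1451, 1378 and 1350 CPM, so the groups overlapped. The log2 fold change of Peg3 was -0.04 (SE 0.04, 95% interval -0.13 to 0.06, edgeR adjusted p = 0.731).

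Usp29 had 515, 483 and 514 reads against 583, 549 and 596, a level of 33.8 ± 1.22 CPM in the EGFP group and 33.7 ± 2.30 CPM in the Zac1 group (n = 3 each). Its log2 fold change was -0.01 (SE 0.07, interval -0.17 to 0.15), and its sign changed under other scalings and when single libraries were left out. Usp29 reads equalled 2.29 to 2.46% of Peg3 reads in the EGFP libraries and 2.34 to 2.50% in the Zac1 libraries. This proportion therefore overlapped between the groups for a pair that shares one stretch of promoter. By gene models, 85.2% of Usp29's exonic bases are free of other genes' exons, the neighbour being Zim3, which had 4 and 5 reads per group.

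The bases between the starts of Peg3 and Usp29 are shown because both genes are transcribed outward from them at levels far apart. RefSeq's GRCm38.p6 places the 163 bases at chr7:6730420-6730582, read here on the minus strand toward Peg3, with each CCAAT box, on either strand (ATTGG), in capitals.
Peg3 and Usp29 shared promoter: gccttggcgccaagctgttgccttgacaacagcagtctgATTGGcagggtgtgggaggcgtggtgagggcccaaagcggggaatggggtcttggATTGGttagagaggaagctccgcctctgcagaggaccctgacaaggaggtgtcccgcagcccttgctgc
The stretch holds 2 CCAAT matches, 5 CpG sites and no TATAAA.

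Zim1, a maternally expressed zinc-finger gene beside Peg3 (chr7:6671269-6696450, minus strand), had 7, 4 and 1 reads against 6, 3 and 5. Its ratio of summed CPM, Zac1 over EGFP, was 1.01 with a 95% interval of 0.435 to 2.40. Such intervals for genes below the count minimum are exact and cover counting error only, not the spread between libraries.

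In the Kcnq1 domain on distal chromosome 7, where a paternal noncoding RNA silences a group of maternally expressed genes, 2 genes of low level stood higher in every Zac1 library. Phlda2 is a small pleckstrin-homology protein that restrains growth of the placenta (chr7:143501545-143503150, minus strand). It had 9, 13 and 9 reads in the EGFP libraries and 18, 28 and 32 in the Zac1 libraries. Its levels were 0.600, 0.873 and 0.608 CPM against 1.12, 1.65 and 1.74 CPM, so that each Zac1 library exceeded each EGFP library. The log2 fold change was 1.12 (SE 0.33, interval 0.42 to 1.81), with an unadjusted p of 0.0041 and an edgeR adjusted p of 0.0827, which missed the threshold. Over the alternative settings the edgeR, DESeq2 and voom adjusted p of Phlda2 ran from 0.0107 to 0.300, and it passed with no filter on low counts (0.0434), without scaling (0.0107), without Zac1 library 4 (0.0310) and without that library and EGFP library 1 together (0.0335).

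Cdkn1c, a cyclin-dependent kinase inhibitor that restrains cell division in the fetus, lies on the same strand closer to Kcnq1 (chr7:143458339-143461050). It had 2 reads in each EGFP library and 6, 7 and 7 in the Zac1 libraries. The summed counts were 6 and 20 reads, a ratio of summed CPM of 2.90 with a 95% interval of 1.12 to 8.81. With no filter on low counts the edgeR adjusted p was 0.411. Of its exonic bases 69.3% are free of other genes' exons, and the overlapping gene model on the other strand, Gm44732, had 0 reads. How reads on the shared bases were counted is not stated.

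Separations of this kind were found in many other genes. Among all 3115 genes below the minimum with at least 10 reads in all, 17.2% (535) had every Zac1 library above every EGFP library. In 169 of them every Zac1 library lay below every EGFP library. A ratio above 1 was found for 60.2% of this class and a ratio of 2 or more for 26.6%. Among tested genes, taken at every level and not only at counts like those of Phlda2, 11.9% had every Zac1 library above every EGFP library. In the set this held for 2 of the 15 tested genes, Phlda2 and Peg10, and for Cdkn1c among the 6 low genes with at least 10 reads. With 3 libraries against 3, an exact permutation test of 1 gene cannot go below p = 0.1.

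The 250 bases before the start of Phlda2 are printed because its counts gave the largest fold change among the tested genes. They lie at chr7:143502525-143502774 (RefSeq, GRCm38.p6, minus strand), with the TATAAA and CCAAT matches in capitals. GENCODE also lists a Phlda2 transcript that starts farther upstream and has an exon over this window.
Phlda2 promoter: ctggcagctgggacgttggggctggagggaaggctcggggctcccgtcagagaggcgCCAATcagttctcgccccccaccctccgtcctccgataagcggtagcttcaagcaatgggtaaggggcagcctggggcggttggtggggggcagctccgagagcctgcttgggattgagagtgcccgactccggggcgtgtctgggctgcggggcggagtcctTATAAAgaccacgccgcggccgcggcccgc
It holds 21 CpG sites, where the median of all RefSeq windows of this length is 6. One TATAAA begins 30 bases before the start.

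Over all 32851 RefSeq windows of 250 bases, TATAAA was found on either strand in 12.4% and CCAAT in 33.8%. The windows of the set numbered 59, for 35 of the 43 genes, and 11 and 22 of them held these letters. The palindrome GGGGCCCC, a GC-rich palindrome described for Zac1 binding, was in 0.889% of all windows and in 4 of the 59, those of Ppp1r9a, Peg3, Rasgrf1 and Begain. It was in neither printed sequence. A match is a description of the letters only.

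The other tested genes of the Kcnq1 domain did not pass the test. Slc22a18, an organic cation transporter-like membrane protein (chr7:143473736-143499334), had 103, 132 and 123 reads against 109, 120 and 136, or 8.01 ± 1.04 against 7.08 ± 0.306 CPM (n = 3 each). Its log2 fold change was -0.18 (SE 0.14, interval -0.47 to 0.11). Cd81, a widely expressed tetraspanin, had 3911, 4046 and 3881 reads against 4257, 4702 and 4961. At 264.8 ± 6.05 and 270.4 ± 5.55 CPM its log2 fold change was 0.03 (SE 0.05, interval -0.07 to 0.13). Ascl2, a basic helix-loop-helix factor of trophoblast and gut stem cells, had 3 reads, all in Zac1 library 6.

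**Figure D2:**
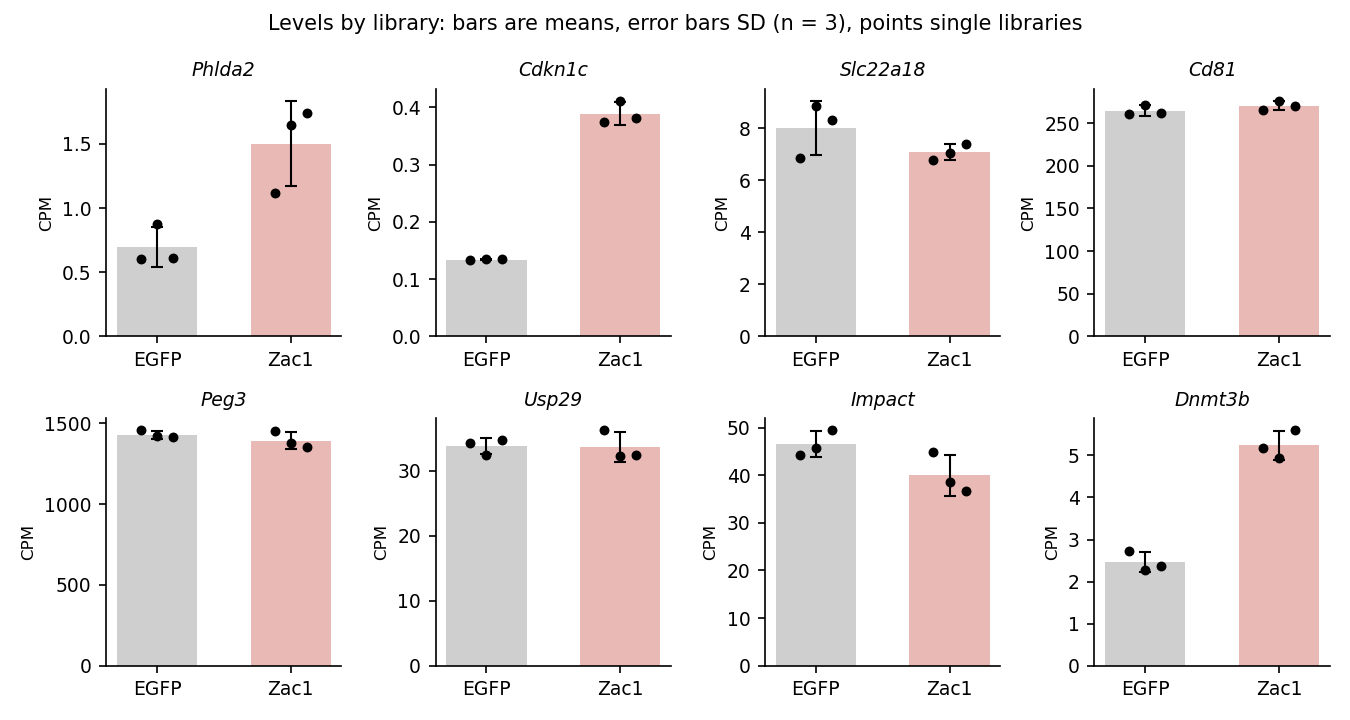
CPM in the EGFP and Zac1 groups for 7 genes of the set and Dnmt3b, with bars for the mean, error bars for the SD (n = 3) and points for single libraries; each panel has its own axis from 0. Phlda2, Cdkn1c and Dnmt3b show no overlap between the groups, Slc22a18, Cd81, Peg3, Usp29 and Impact do, and the Cdkn1c bars rest on 6 and 20 reads.

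The Peg10-Sgce domain on chromosome 6 had 3 tested genes out of 5, none past the test. Peg10, a retrotransposon-derived protein required in the placenta (chr6:4747306-4760517, plus strand), had 89, 74 and 79 reads against 100, 104 and 126. Its levels were 5.93, 4.97 and 5.34 CPM against 6.23, 6.11 and 6.86 CPM, with every Zac1 library above every EGFP library. The log2 fold change of 0.24 (SE 0.14, interval -0.06 to 0.55) gave an edgeR adjusted p of 0.438. Sgce, the epsilon-sarcoglycan gene that runs from a neighbouring start in the other direction (chr6:4674350-4747207), had 244, 293 and 258 reads against 254, 281 and 296. At 17.8 ± 1.74 and 16.1 ± 0.345 CPM its log2 fold change was -0.14 (SE 0.10, interval -0.35 to 0.07). This pair of paternally expressed neighbours thus had estimates on different sides of 0, and both intervals included 0.

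The maternally expressed genes of that domain were low. Asb4, an ankyrin-repeat SOCS-box protein, had 17, 10 and 13 reads against 17, 14 and 6, a log2 fold change of -0.31 with a wide interval of -1.21 to 0.60. Ppp1r9a, which encodes the phosphatase regulator neurabin, had 3, 0 and 2 reads against the same counts. Tfpi2, a secreted Kunitz-type protease inhibitor, had 1 read in EGFP library 1 and 0 in the others.

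The Dlk1-Dio3 domain on chromosome 12 was close to silent: none of its 7 genes reached the count minimum. Dlk1, a non-canonical Notch ligand, and the noncoding RNAs Meg3 and Mirg had 0 reads in all 6 libraries. Over the 96243047 reads of the 6 libraries, 0 reads allows a level of up to 0.0312 CPM, from 3 counts. Rian, a noncoding host of small nucleolar RNAs, had 1 read in EGFP library 1. Rtl1, a retrotransposon-derived gene of this domain, had 1 read in each of Zac1 libraries 5 and 6, and Begain had 1 read in Zac1 library 4.

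Dio3, the deiodinase that inactivates thyroid hormone at the far end of the domain (chr12:110279068-110281097), was the exception in level. It had 2, 9 and 5 reads against 6, 10 and 18, so the groups overlapped. The ratio of summed CPM was 1.85 with an interval of 0.992 to 3.58.

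The H19-Igf2 domain was likewise near 0. H19, a maternally expressed noncoding RNA (chr7:142575529-142578143), had 2, 0 and 0 reads against 1, 4 and 1, a ratio of summed CPM of 2.61 with an interval of 0.466 to 26.4. Igf2, the fetal insulin-like growth factor (chr7:142650766-142666816), had 0 reads in the EGFP group and 0, 1 and 2 in the Zac1 group. A count of 0 in the EGFP group allows up to 0.0671 CPM. The depth does not separate the groups for either gene.

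In the Prader-Willi domain on chromosome 7, whose genes are paternally expressed and known for roles in brain, 3 of 4 genes had 0 reads in every library. These were Magel2, a MAGE-family ubiquitin ligase partner, Mkrn3, a makorin, and Snrpn, a small nuclear ribonucleoprotein. Only 65.9% of Snrpn's exonic bases are free of other genes' exons, since Snurf shares its transcript and Gm38393 and Gm18908 also overlap it. Snurf had 0 reads as well, but how reads on shared bases were counted is not stated. Such reads may be missing from both genes. Ndn, the MAGE-family growth suppressor necdin (chr7:62346569-62350262), had 0, 4 and 1 reads against 2, 1 and 7, with a ratio of 1.74 and an interval of 0.541 to 6.48.

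Host genes and the retrogenes or small genes in their introns were far apart in level. H13, a signal peptide peptidase on chromosome 2 (chr2:152669461-152708670), had 1698, 1904 and 1831 reads against 1886, 2225 and 2526, while the retrogene Mcts2 within it had 0. The level of H13 was 121.6 ± 7.61 against 128.5 ± 10.2 CPM (log2 fold change 0.08, SE 0.07, interval -0.06 to 0.22). Blcap, a small apoptosis-linked protein (chr2:157556362-157571274), had 920, 968 and 992 reads against 1096, 1082 and 1221, while Nnat, the proteolipid neuronatin inside it, had 0. Blcap stood at 64.4 ± 2.91 and 66.1 ± 2.37 CPM (log2 fold change 0.04, SE 0.06, interval -0.10 to 0.17). Nap1l5, a retrogene inside Herc3 on chromosome 6, also had 0 reads, while Herc3 had 2560 and 2763 reads per group. In these 3 loci the paternally expressed gene had 0 counted reads and its host was expressed.

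Grb10 and Ddc lie side by side on chromosome 11, and each uses promoters whose imprinting depends on the tissue. Grb10, an adaptor that inhibits insulin and IGF receptor signalling (chr11:11930508-12038683), had 1, 4 and 1 reads against 4, 10 and 6, so that one library of each group had 4 reads. Its summed counts, 6 and 20, equalled those of Cdkn1c, and its ratio was also 2.90 with an interval of 1.12 to 8.81. With no filter on low counts its edgeR adjusted p was 0.412. Ddc, the aromatic L-amino acid decarboxylase (chr11:11814101-11898144), had 37, 35 and 44 reads against 52, 33 and 37, a log2 fold change of -0.12 (SE 0.24, interval -0.65 to 0.40).

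Gnas and Ano1 were the most abundant genes outside the Peg3 and Kcnq1 domains. Gnas encodes the stimulatory G protein alpha subunit and uses several promoters of different imprinting (chr2:174284320-174346744). Its reads numbered 10425, 10520 and 10712 against 11402, 12335 and 13548, or 708.2 ± 14.7 and 723.9 ± 13.4 CPM, a log2 fold change of 0.03 (SE 0.04, interval -0.06 to 0.12). The antisense transcript Nespas had 0 reads, and the table does not separate the Gnas isoforms. The sign of the Gnas estimate turned negative under both corrections for GC content, to -0.17 with adjusted p = 0.0445 (edgeR) under the least-squares curve. Ano1, a calcium-activated chloride channel (chr7:144588549-144751974), had 5768, 5830 and 5912 reads against 6209, 6552 and 7187. Its level was 391.7 ± 7.61 and 387.5 ± 3.12 CPM (log2 fold change -0.02, SE 0.04, interval -0.11 to 0.08).

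Impact and Inpp5f had estimates below 0. Impact, a translation regulator that inhibits the kinase GCN2 and is paternally expressed, had 665, 681 and 733 reads against 720, 658 and 673. Its levels were 44.3, 45.7 and 49.5 CPM against 44.9, 38.7 and 36.6 CPM, with Zac1 library 4 inside the EGFP range and the other two Zac1 libraries below it. The log2 fold change was -0.22 (SE 0.08, interval -0.39 to -0.04), with an unadjusted p of 0.0185 and an edgeR adjusted p of 0.193. Without Zac1 library 4 the edgeR adjusted p was also 0.0185, and without EGFP library 1 and Zac1 library 4 it was 0.000553. Inpp5f, a phosphoinositide phosphatase with an imprinted brain variant (chr7:128611328-128696425), had 603, 570 and 566 reads against 551, 642 and 618. It stood at 40.2, 38.3 and 38.2 CPM against 34.3, 37.7 and 33.6 CPM, with a log2 fold change of -0.14 (SE 0.07, interval -0.30 to 0.01, edgeR adjusted p = 0.350). Every Zac1 library was lower, but the share of all tested genes separated in this direction was not counted.

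**Figure D3:**
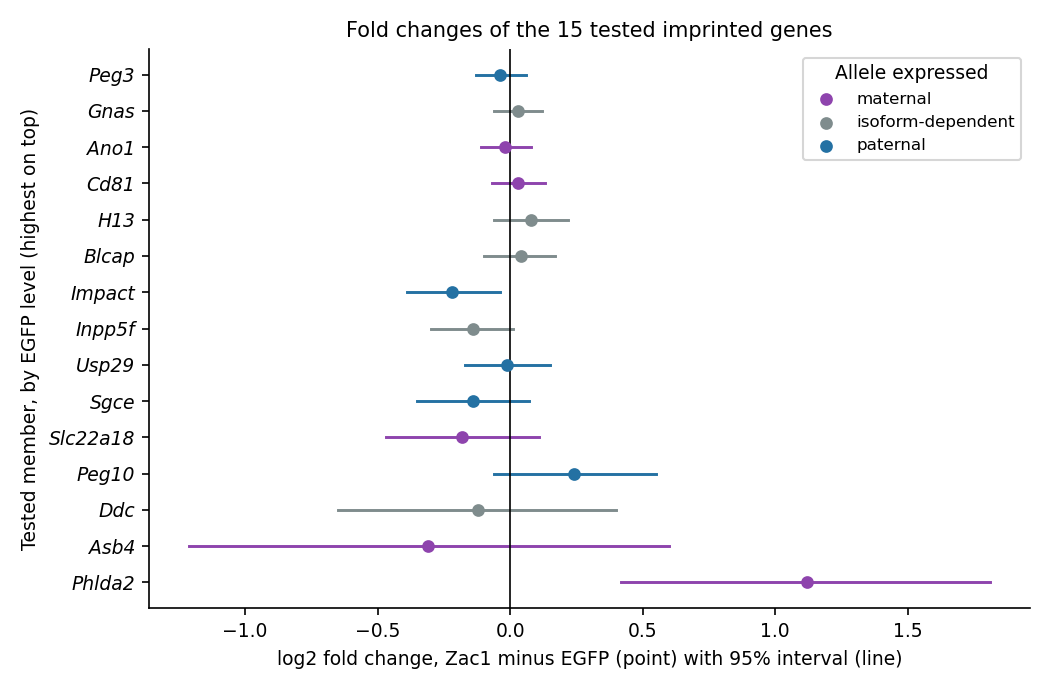
Log2 fold change, Zac1 minus EGFP, of the 15 tested genes (points) with the 95% interval (lines), ordered by EGFP level with the highest on top and coloured by the allele known to be expressed. The intervals narrow with level: Peg3, Gnas, Ano1 and Cd81 lie within 0.25 of 0, while Phlda2 and Asb4 have the widest intervals, and only those of Phlda2 and Impact leave out 0.

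The single-gene loci that were silent or nearly so completed the set. Slc38a4, an amino acid transporter of liver and placenta, had 0 reads in every library, as had Dcn, which encodes the proteoglycan decorin, and the potassium channel gene Kcnk9. Gatm, which encodes the glycine amidinotransferase of creatine synthesis, had 2 reads in Zac1 library 5. Mest and Rasgrf1, a paternally expressed hydrolase-fold gene and a guanine nucleotide exchange factor for Ras, each had 1 read, both in Zac1 library 6. Of Mest's exonic bases 76.9% are free of other genes' exons, and the overlapping Copg2 on the other strand had 3409 and 3649 reads per group. How reads on these shared bases were counted is not stated. Genes without a read made up 27.9% of the set and 56.1% of all genes in the table.

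By the allele known to be expressed, the 17 maternally expressed genes comprised 5 tested, 8 with few reads and 4 without reads, and the median log2 fold change of the 5 tested was -0.02. The 20 paternally expressed genes comprised 5 tested, 7 with few reads and 8 without, with a median of -0.04. Of the 6 grouped as isoform-dependent, 5 were tested, with a median of 0.03. The grouping does not record in which tissues each gene is imprinted. No group had a called gene, and no difference between the allele groups was tested.

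A further list of 43 imprinted genes outside the set gave 28 tested genes, of which 0 were higher and 2 lower in the Zac1 group, where 3.12% of all tested genes were called higher and 0.668% lower. Airn, the paternal noncoding RNA of the Igf2r domain, fell by 0.43 on the log2 scale (SE 0.11, edgeR adjusted p = 0.0455), and the splicing-factor retrogene Zrsr1 fell by 0.42 (SE 0.10, edgeR adjusted p = 0.0274). Airn overlaps Igf2r and Zrsr1 lies inside Commd1. The library kit was directional, but the strand setting of the counting is not stated. Reads of such overlapping pairs may therefore be credited to the wrong gene or left out of both. Of the 28, 9 lay above 0 and 19 below, with a median of -0.052. The called number fell to 0 without EGFP library 2, Zac1 library 5 or Zac1 library 6, was 1 without EGFP library 3, stayed at 2 without EGFP library 1 and was 5 without Zac1 library 4.

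The Kcnq1 domain also held low genes outside the set, named here after their values were seen. Kcnq1, the potassium channel gene, had 9 and 28 reads per group, a ratio of summed CPM of 2.70 (interval 1.24 to 6.51), and Tspan32, a tetraspanin, had 2 and 13, a ratio of 5.65 (1.28 to 51.5). Th, tyrosine hydroxylase, had 0 reads in the EGFP group and 8 in the Zac1 group. Of all 3115 genes below the minimum with at least 10 reads in all, 26.6% had a ratio of 2 or more. In 17.2% of them every Zac1 library lay above every EGFP library. Th, with 8 reads, is outside that class. The domain's noncoding RNA Kcnq1ot1 had a log2 fold change of -0.14 (SE 0.13, edgeR adjusted p = 0.660), Tssc4 of 0.24 (SE 0.08, edgeR adjusted p = 0.131) and Nap1l4 of -0.03 (SE 0.05, edgeR adjusted p = 0.853). Osbpl5 stood at -0.02 (SE 0.08, edgeR adjusted p = 0.921) and Tnfrsf23 at 0.02 (SE 0.06, edgeR adjusted p = 0.914). None of these tested genes passed, and Kcnq1, Tspan32 and Th were below the count minimum and not tested.

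Of 24 factors that set or keep imprints, 22 were tested, and 1 passed, a share near the 3.78% of all tested genes. This was Dnmt3b, and the count says nothing particular about the list. Dnmt3b, a de novo DNA methyltransferase, rose from 41, 34 and 35 reads to 83, 84 and 103, or from 2.46 ± 0.239 to 5.24 ± 0.339 CPM (n = 3 each). Its log2 fold change was 1.09 (SE 0.17, interval 0.72 to 1.46, edgeR adjusted p = 0.00216), and it was called under every alternative run. The related Dnmt3a had a log2 fold change of 0.28 (SE 0.08, edgeR adjusted p = 0.0661). Dnmt1, which copies methylation at replication, stood at 0.05 (SE 0.05), Trim28, the co-repressor that guards imprints, at 0.00 (SE 0.05), and its partner Zfp57 at -0.06 (SE 0.08). The germline and oocyte factors Dnmt3l and Dppa3 had 0 reads. In all, 14 of the 22 lay above 0 and 8 below, with a median of 0.014.

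**Figure D4:**
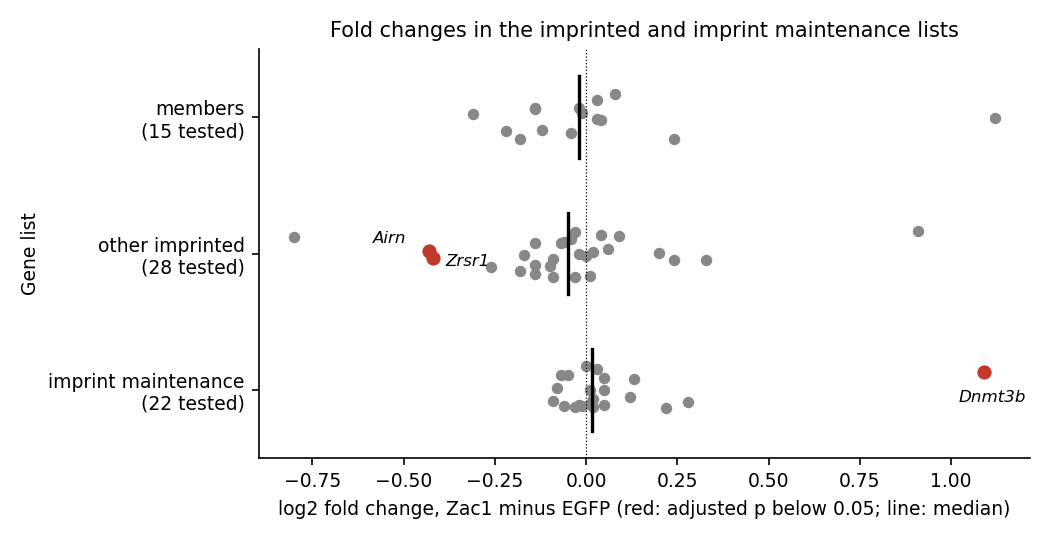
Log2 fold change, Zac1 minus EGFP, of the tested genes in the 43-gene set (15), the other imprinted genes (28) and the imprint maintenance factors (22), with red points for an adjusted p under 0.05 and vertical lines for medians. The medians lie at -0.016, -0.052 and 0.014, and the red points are Airn and Zrsr1 below 0 and Dnmt3b at 1.09.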

How the data were processed

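Polyadenylated RNA of 6 AML12 libraries was sequenced by the authors. They deposited 1 table of read counts per Ensembl gene, and the submitters' processing notes name FastQC, STAR, HTSeq and DESeq2 with no version. For the genome build, annotation and strand setting, each is not given in the sources used here. Although its name calls the table normalized, every value is whole and library totals differ, so it was tested as counts. Symbols and positions came from GENCODE M21 (GRCm38), which matched 49326 of 49585 identifiers, and promoters from RefSeq.

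Genes with a mean of at least 10 reads were fitted with edgeR 4.0.16 (R 4.3.3, TMM scaling, quasi-likelihood test, Zac1 minus EGFP, 14 degrees of freedom) and adjusted over all 12130. CPM is a count divided by the TMM-scaled library size, times 1000000, and intervals are 95%. Genes below the minimum are given as reads and as a ratio of summed CPM with an exact binomial interval. Precision at low counts follows the depth, 3 reads being 0.0312 CPM over all libraries. DESeq2 1.42.0 and limma 3.58.1 (voom), other scalings, filters, GC corrections and left-out libraries were alternatives. Replicate pairs differed by more than counting noise (chi-square per degree of freedom 2.2 to 8.22), so all 6 counted as libraries. The script was tested on simulated data. The set, the lists and the rule for naming genes (every gene of the set, and called genes of the other lists) were chosen with earlier results of these data known. The robust GC curve and the TATAAA and CCAAT searches were added after seeing the data. The hepatocyte marker Tf was not analysed here.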

Additional observations from a re-analysis of the deposited data

How the results depend on the processing

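No paired analysis was possible because the groups share no replicate numbers. Of 320 values for single genes under 17 alternatives, 275 kept their direction and side of the threshold. The set had 0 called genes in the main test, 5 with unscaled counts (Phlda2, Cd81, Gnas, H13 and Blcap), 1 with no filter (Phlda2), 1 with the least-squares GC curve (Gnas), 2 without EGFP library 1 and Zac1 library 4 together (Phlda2 and Impact), and 0 to 2 with 1 library left out, the 2 being without Zac1 library 4. The number above 0 was 6 in the main test, 13 unscaled, 19 of 31 with no filter, 3 with the least-squares GC curve and 6 to 8 with 1 library left out. Unscaled counts moved the median of all genes to 0.201 and turned the sign of Slc22a18 (0.03), Sgce (0.06), Peg3 (0.16), Usp29 (0.19), Ddc (0.07), Inpp5f (0.06) and Ano1 (0.19), all below that median. Upper-quartile scaling gave Usp29 0.01 and Ano1 0.00. The least-squares GC curve gave Cd81 -0.02, Usp29 0.03, Blcap -0.04, H13 -0.06 and Gnas -0.17, and the robust GC curve gave Usp29 0.04 and Gnas -0.04. Without EGFP library 1 and Zac1 library 4 Blcap stood at -0.02. With 1 library left out Asb4 ran from -0.65 to 0.07, Usp29 from -0.06 to 0.02 and Ddc from -0.39 to 0.00. Called genes of the other imprinted list numbered 2 in the main test, 1 with upper-quartile scaling, 5 unscaled (Atp10a, Bcl2l1, Qpct, Tnfrsf23 and Tssc4, with Airn at adjusted p 0.120 and Zrsr1 at 0.152 by edgeR), 4 with no filter (Airn, Zrsr1, Qpct and Ube3a), 1 with a minimum of 50, 1 with the robust GC curve, 5 without EGFP library 1 and Zac1 library 4 (Airn, Zrsr1, Qpct, Tssc4 and Ube3a), and 0 to 5 with 1 library left out. Called imprint maintenance factors numbered 1 in the main test and with each library left out, 12 unscaled, 2 with no filter, 4 with the least-squares GC curve and 2 without EGFP library 1 and Zac1 library 4. Over all genes 459 were called in the main test, 3388 unscaled, 979 with no filter, 241 with a minimum of 50, 1461 without those libraries and 206 to 963 with 1 library left out. The cause of these differences was not tested. At a mean under 10 reads the depth leaves intervals too wide to separate the groups for most low genes of the set.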
